A study of Homo sapiens with 18 samples.

Results

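The genes described here are 10 hypoxia-responsive genes of HepG2 cells, P4HA1, VEGFA, CA9, BNIP3, ANKRD37, EGLN3, PFKFB4, PDK1, ADM and NDRG1. They were picked by symbol as widely used targets of the hypoxia-inducible factors (HIF), with earlier results of these data known. P4HA1 was put with them because it had drawn notice as high with 6N-10CA against DMSO. The genes make up 10 of the 35238 gene rows of the table, and all 10 were among the 14797 genes with enough counts to be tested. The comparison of 6N-10CA with DMSO therefore serves as a description for these genes, with no test. RNA of HepG2, a human line derived from a liver tumour, was sequenced in 18 libraries, 3 in each of 6 groups, for a study of ligands of the nuclear receptor LRH-1. The treatments were 6N-10CA, 10CA and 6N, small molecules known here by code names and given at 10 µM each, and the phospholipid DLPC at 100 µM. The vehicles were DMSO, set here against the small molecules, and ethanol, set against DLPC, at 0.1% each. All groups were of the same line, were treated in medium with charcoal-stripped serum, and carry no label of low oxygen. A single tumour-derived line stands in for liver cells here, and the labels do not say how long the treatments lasted.

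HIF is a transcription factor made of an oxygen-sensitive alpha subunit and a stable beta subunit. Where oxygen, iron and alpha-ketoglutarate are at hand, prolyl hydroxylases of the EGLN family modify the alpha subunit, the VHL ubiquitin ligase binds it, and it is degraded. Where hydroxylation fails, the alpha subunit builds up, enters the nucleus and binds hypoxia response elements near genes of glucose use, pH control, vessel growth and mitochondrial turnover. Control of the alpha subunit thus acts mainly on the protein, which was not measured here.

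The core of a hypoxia response element is ACGTG or GCGTG, and the promoters of P4HA1, PDK1, PFKFB4 and CA9 are shown so that their cores can be seen. The windows without a core, those of EGLN3 and of the first PDK1 start, are not shown. A RefSeq table (GRCh38.p14) holds windows of 300 bases, 250 before to 50 after an annotated start, and 8 of the 10 genes matched it. VEGFA and NDRG1 did not match. Capitals mark each core found, on either strand, so that a core on the other strand reads CACGT or CACGC, and each sequence runs 5′ to 3′ on the strand of its gene. The first belongs to P4HA1, the gene with the highest level relative to DMSO, at chr10:73096817-73097116 on the minus strand. PDK1, which was higher with 6N-10CA than with 6N without a replicate term, is shown at the second of its 2 annotated starts, chr2:172555840-172556139 on the plus strand. PFKFB4, with the largest difference among the 10 between DLPC and ethanol, lies at chr3:48556754-48557053 on the minus strand. CA9, which differed most between replicate numbers, lies at chr9:35673678-35673977 on the plus strand.
P4HA1: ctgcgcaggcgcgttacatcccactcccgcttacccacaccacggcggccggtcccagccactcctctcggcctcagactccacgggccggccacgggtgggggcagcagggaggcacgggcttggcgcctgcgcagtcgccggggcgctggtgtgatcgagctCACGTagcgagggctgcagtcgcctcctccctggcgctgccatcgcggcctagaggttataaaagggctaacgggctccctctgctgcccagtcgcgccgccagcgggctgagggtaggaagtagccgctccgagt
PDK1: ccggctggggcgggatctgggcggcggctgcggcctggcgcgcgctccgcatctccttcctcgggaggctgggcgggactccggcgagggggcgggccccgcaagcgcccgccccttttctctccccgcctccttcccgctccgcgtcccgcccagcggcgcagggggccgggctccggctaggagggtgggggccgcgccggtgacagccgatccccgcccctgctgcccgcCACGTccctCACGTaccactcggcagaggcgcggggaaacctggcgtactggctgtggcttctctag
PFKFB4: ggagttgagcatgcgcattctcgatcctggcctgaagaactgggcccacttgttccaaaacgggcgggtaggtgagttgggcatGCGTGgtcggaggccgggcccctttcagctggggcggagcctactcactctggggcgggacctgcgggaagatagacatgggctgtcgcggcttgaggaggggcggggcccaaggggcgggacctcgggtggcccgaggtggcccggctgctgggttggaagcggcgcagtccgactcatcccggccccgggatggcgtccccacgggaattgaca
CA9: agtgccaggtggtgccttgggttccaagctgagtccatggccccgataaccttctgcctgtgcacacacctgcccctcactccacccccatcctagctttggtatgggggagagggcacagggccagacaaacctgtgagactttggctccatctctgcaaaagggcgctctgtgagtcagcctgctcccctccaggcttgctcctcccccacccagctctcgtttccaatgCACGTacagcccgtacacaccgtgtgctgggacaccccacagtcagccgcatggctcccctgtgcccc

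P4HA1 and CA9 each held 1 ACGTG core, on the other strand, with its first base 86 and 18 bases before the start. The second PDK1 window held 2, beginning 17 and 8 bases before the start, and the window of the first PDK1 start held none. PFKFB4 and ADM each held 1 GCGTG core, beginning 166 and 101 bases before the start. ANKRD37 held 3 ACGTG matches and BNIP3 held 2 of ACGTG and 4 of GCGTG, where the palindrome CACGTG was counted on each strand. The EGLN3 window held neither. Among all 35116 promoter windows of the table, 21.4% held ACGTG, 36.5% held GCGTG and 48.4% held either on 1 of the strands, so a match in such a window is common and is given as a description.

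**Figure D1:**
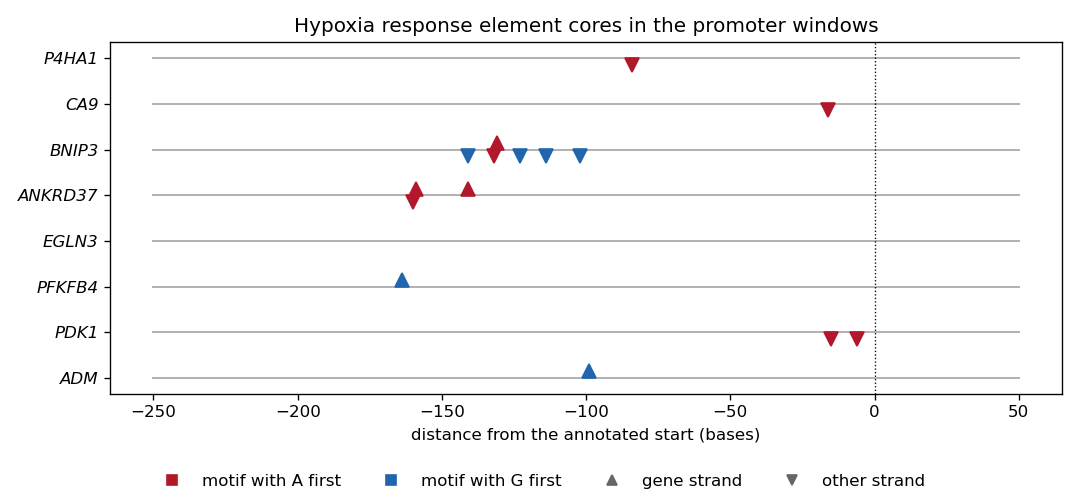
Positions of ACGTG (A first) and GCGTG (G first) matches in the promoter windows of 8 of the genes, in bases from the annotated start. The markers point up for the strand of the gene and down for the other strand, and the 2 windows of PDK1 share a line. BNIP3 has 6 matches and EGLN3 has none.

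Total counts per library ran from 28135967 to 34992442, and levels are given in CPM, the counts of a gene scaled to library size with TMM factors. The cells carried their labelled identity at the RNA level, as all 10 hepatocyte and HepG2 markers were tested and summed to 39390 to 46860 CPM. None of these 10 passed without a block in the 8 comparisons, where 0 to 1.71% of all genes did. With the block APOB was higher on the log2 scale with 6N-10CA and with 10CA than with 6N (0.24 and 0.22, edgeR adjusted p = 0.0200 and 0.0348). APOB was also higher with DLPC than with ethanol (0.23, edgeR adjusted p = 0.0325). FOXA2 was higher with 6N-10CA than with 6N (0.20, edgeR adjusted p = 0.0133), and FGB than with 10CA (0.16, edgeR adjusted p = 0.0104). The 14 markers of stromal, endothelial and blood cells summed to 217 to 239 CPM with 6N-10CA, 230 to 241 with 10CA, 230 to 256 with 6N, 245 to 256 with DLPC, 224 to 235 with DMSO and 236 to 250 with ethanol, and most of that sum came from ACTA2 and CD68. Of the endothelial markers KDR was at 0 in every library, while PECAM1 averaged 13.5, CDH5 18.9 and VWF 4.10 CPM over the 18 libraries. Of the erythroid ones HBB was at 0 in every library and HBA1 averaged 2.04 CPM. Of these markers 8 were tested. In 10CA against 6N, where 1.71% of all genes passed without a block, 1 of them passed, and none did in the other comparisons. This was the pericyte receptor PDGFRB, which was 0.62 higher on the log2 scale with 10CA than with 6N (edgeR adjusted p = 0.0449). It passed there with the block too (0.62, edgeR adjusted p = 0.00136), where ACTA2 was lower (-0.13, edgeR adjusted p = 0.0376), and PDGFRB was lower with 6N-10CA than with 10CA with the block (-0.51, edgeR adjusted p = 0.0171). With the block CD68 was higher with DLPC than with ethanol (0.21, edgeR adjusted p = 0.00821) and ACTA2 lower (-0.15, edgeR adjusted p = 0.0207), and CD68 was lower with 6N-10CA than with 6N (-0.21, edgeR adjusted p = 0.00720). The part of these markers in the results below was not tested. In bulk RNA, fewer cells with a transcript and less transcript per cell cannot be told apart.

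All 10 genes were expressed in every group, with at least 252 counts in every library. Set against exon length, the mean level over the 18 libraries was highest for BNIP3, at 208.6 CPM per kilobase. P4HA1 followed at 68.2, CA9 at 59.7, NDRG1 at 45.8, PFKFB4 at 41.9 and VEGFA at 35.3 CPM per kilobase. The 4 others were lower, with ANKRD37 at 9.17, PDK1 at 8.72, ADM at 6.77 and EGLN3 at 2.93 CPM per kilobase. The largest ratio between the highest and the lowest of the 18 libraries was 2.28, for CA9, and the smallest was 1.38, for BNIP3. Strandedness of the libraries is not given in the sources used here, so reads of genes that overlap on opposite strands may not be told apart. ARHGEF39 overlaps CA9 on the opposite strand and averaged 50.5 CPM, and UFSP2 overlaps ANKRD37 on the opposite strand and averaged 24.1 CPM. SPTSSA, at 125 CPM, lies on the strand of EGLN3 and overlaps its long annotated span. These overlaps were read from whole gene spans and not from exons. The levels of EGLN3, ANKRD37 and CA9 are thus uncertain by an amount that was not measured.

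**Figure D2:**
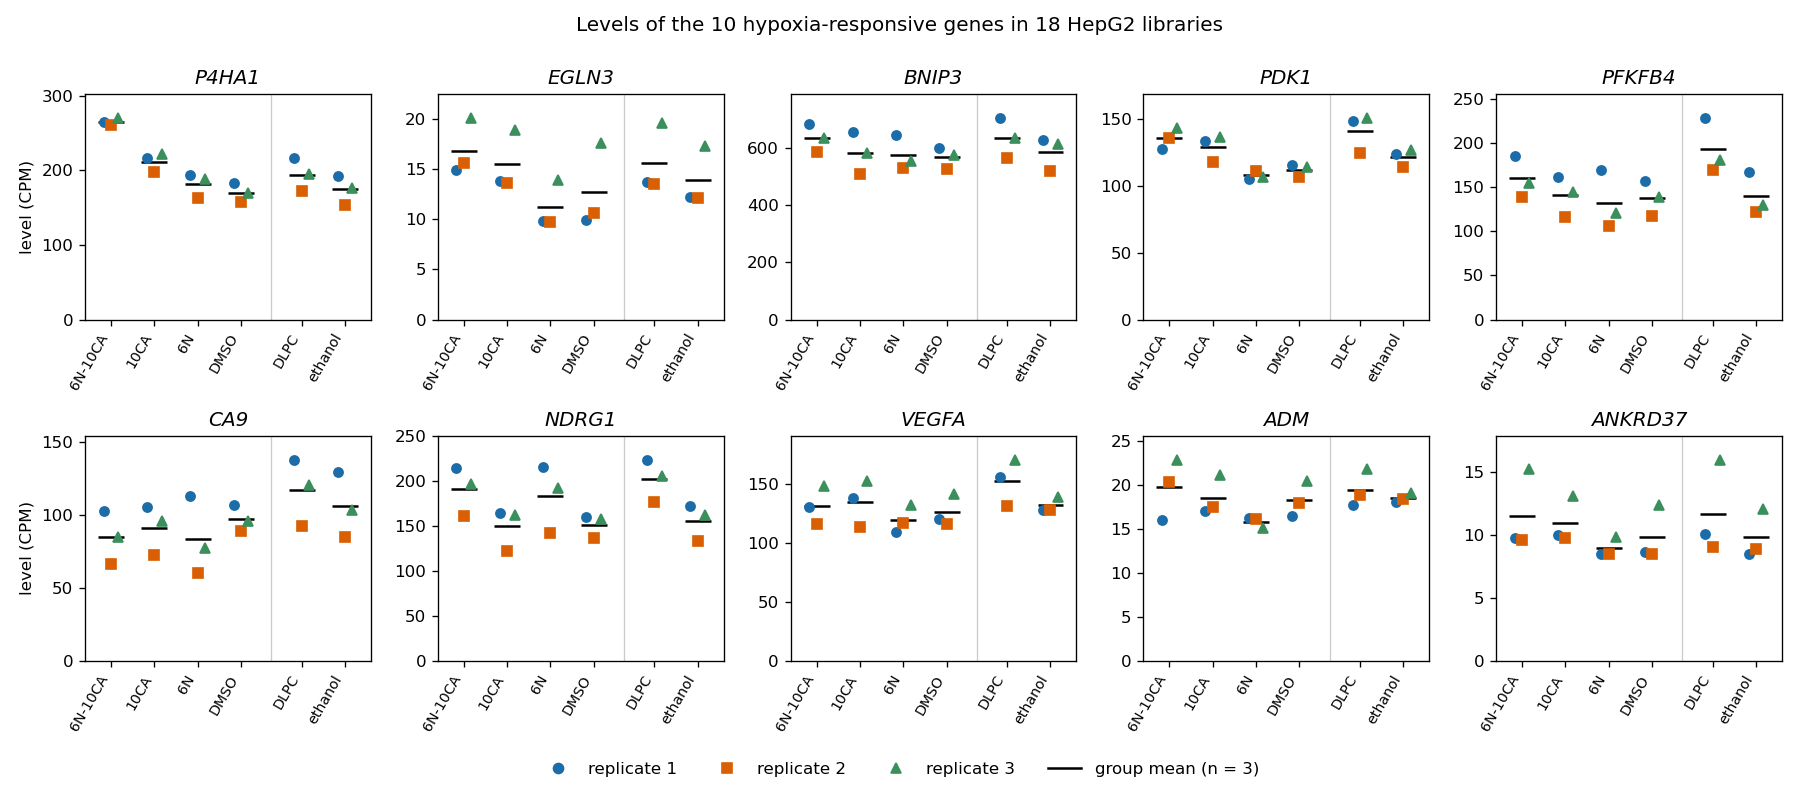
Level of each of the 10 genes in CPM (vertical axes, starting at 0) in all 18 libraries, by group, with marks for replicate numbers and bars for group means (n = 3). P4HA1 lies between 260.3 and 269.5 CPM in the 6N-10CA libraries, above every other library.

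P4HA1 encodes the catalytic subunit of a collagen prolyl hydroxylase, an enzyme of the endoplasmic reticulum (GRCh38 chromosome 10, 73007217 to 73096974, minus strand). Its level was 265.3, 260.3 and 269.5 CPM in the 6N-10CA libraries, 216.4, 197.2 and 221.4 CPM with 10CA, and 193.4, 162.3 and 188.9 CPM with 6N, against 183.1, 158 and 169.5 CPM with DMSO. It was 215.9, 171.8 and 195.2 CPM with DLPC, against 192.8, 153.8 and 176.5 CPM with ethanol. All 3 libraries of 6N-10CA stood above all 15 others, and all 3 of 10CA stood above all 3 of DMSO and of 6N, while 6N overlapped DMSO and DLPC overlapped ethanol. The order of the group means was 265 ± 4.61 with 6N-10CA, 211.7 ± 12.8 with 10CA, 194.3 ± 22.1 with DLPC, 181.5 ± 16.8 with 6N, 174.4 ± 19.6 with ethanol and 170.2 ± 12.6 with DMSO (CPM, mean ± SD, n = 3 each). Apart from the step below 6N-10CA, each neighbouring pair in that order overlapped. The log2 fold change was 0.64 for 6N-10CA against DMSO, 0.55 against 6N and 0.32 against 10CA, given with no test because the 6N-10CA libraries took part in the choice of this gene.

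The numbers 1 to 3 in the sample titles went with shared shifts of whole libraries, which bears on every test below. Deviations from the group means correlated between same-numbered libraries with a median r of 0.31 over 45 pairs and exceeded 0.1 in 43. Among the 8 comparisons made, all 3 pairs exceeded 0.1 in 7, the exception being 6N against DMSO. Each comparison was tested over all 14797 genes with edgeR's quasi-likelihood test and Benjamini-Hochberg adjustment, without a term for the number. Where the numbers paired the libraries, the result with the number as a block follows wherever it changed the call. A gene is said to have passed where its adjusted p was under 0.05.

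The small molecules were given at the same dose, so 3 pairs of them could be compared. P4HA1 is left out of the counts for the pairs with 6N-10CA, as its choice used those libraries. The other genes were picked by symbol, but with earlier results of these data known, so their counts are given as a description. Of the other 9 genes, 1, PDK1, was higher with 6N-10CA than with 6N without a block, where 1.64% of all genes passed. With the block, 6 of the 9 were higher and none lower, where 8.32% of all genes passed, 3.9% as higher and 4.42% as lower. These were EGLN3, PDK1, ANKRD37, ADM, PFKFB4 and BNIP3. The log2 fold changes of the 9 ran from 0.02 for CA9 to 0.59 for EGLN3 without the block, where the median of all genes tested was 0.00. VEGFA, CA9 and NDRG1 did not pass in either fit. For 2 of the 9, EGLN3 and PDK1, all libraries of 6N-10CA lay above all of 6N, as for 9.03% of all genes.

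PDK1, a kinase that turns off pyruvate dehydrogenase and so keeps pyruvate from entering the mitochondrial citric acid cycle (chromosome 2, 172555373 to 172608669, plus strand), had 127.1, 135.8 and 143.1 CPM with 6N-10CA, 133.1, 117.2 and 136.1 CPM with 10CA and 104.9, 111.1 and 106.5 CPM with 6N. All libraries of 6N-10CA and of 10CA stood above all of 6N. It was 1.26-fold higher with 6N-10CA than with 6N (log2 fold change 0.33, SE 0.07, edgeR adjusted p = 0.0173). Without the block that call was lost in 4 of the 6 fits that left out 1 library, where the edgeR adjusted p was 0.0819 without 6N replicate 1, 0.0546 without 6N replicate 3, 0.0536 without 6N-10CA replicate 2 and 0.111 without 6N-10CA replicate 3. With the block the adjusted p was 0.000389, and PDK1 passed in each of the 6 such fits.

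EGLN3, itself a HIF prolyl hydroxylase and part of the feedback that limits HIF (chromosome 14, 33924231 to 34462774, minus strand), had 14.9, 15.6 and 20.1 CPM with 6N-10CA, 13.9, 13.7 and 19.0 CPM with 10CA and 9.86, 9.76 and 13.9 CPM with 6N. Every library of 6N-10CA stood above every library of 6N, whereas 10CA and 6N overlapped, and the library numbered 3 was the highest in each group. Relative to 6N, EGLN3 was 1.5-fold higher with 6N-10CA (log2 fold change 0.59, SE 0.22, edgeR adjusted p = 0.203), and it passed with the block (0.60, SE 0.07, edgeR adjusted p = 1.47e-05). Because the libraries numbered 3 stood apart for EGLN3, the fit was repeated without them in every group, a choice made after the values were seen. The log2 fold change of EGLN3 was then 0.64 for 6N-10CA against 6N and 0.49 for 10CA against 6N, given with no test because its own values led to that choice. PDK1 did not pass in that fit in either comparison (no block, edgeR adjusted p = 0.352 and 0.512), with 2 libraries left in each group.

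The 4 other genes that passed with the block in 6N-10CA against 6N were ADM, ANKRD37, PFKFB4 and BNIP3. ADM, the precursor of the vasodilator adrenomedullin, had 16.0, 20.3 and 22.9 CPM with 6N-10CA, against 16.3, 16.1 and 15.1 CPM with 6N. ANKRD37, an ankyrin repeat protein, had 9.79, 9.60 and 15.2 CPM with 6N-10CA, against 8.49, 8.46 and 9.84 CPM with 6N. ADM was thus higher with 6N-10CA in replicates 2 and 3 only, and most of the excess of ANKRD37 was in replicate 3. PFKFB4, a bifunctional enzyme that makes and breaks an activator of glycolysis, had 185.7, 139.3 and 154.5 CPM with 6N-10CA, against 169.5, 105.7 and 120.2 CPM with 6N. BNIP3, a receptor for the removal of mitochondria, had 684.2, 585.9 and 634.1 CPM with 6N-10CA, against 646.4, 529.9 and 552.7 CPM with 6N. The groups overlapped for each of these 4 genes, and for PFKFB4, BNIP3 and ANKRD37 the library of 6N-10CA was the higher in all 3 pairs of the same number. The log2 fold changes with the block were 0.31 for ADM, 0.35 for ANKRD37, 0.29 for PFKFB4 and 0.14 for BNIP3, with edgeR adjusted p of 0.0247, 0.0227, 0.000851 and 0.0167. With the block PFKFB4 and EGLN3 passed in all 6 fits that left out 1 library. ADM, ANKRD37 and BNIP3 did not pass without 6N replicate 3 (edgeR adjusted p = 0.155, 0.156 and 0.0870), ADM and BNIP3 did not without 6N-10CA replicate 2 (edgeR adjusted p = 0.133 and 0.0952), and ADM and ANKRD37 did not without 6N-10CA replicate 3 (edgeR adjusted p = 0.139 and 0.130).

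In 10CA against 6N, none of the 10 genes passed without a block, where 1.71% of all genes passed. By unadjusted p under 0.05 there were 3 among the 10 and 2051 among the 14797 genes tested. With the block 4 passed, 3 as higher and 1 as lower, where 7.66% of all genes did, 4.14% as higher and 3.52% as lower, and these 4 kept the call in each fit without 1 library. P4HA1 (log2 fold change 0.22, edgeR adjusted p = 0.243 without and 0.00311 with the block), EGLN3 (0.47, edgeR adjusted p = 0.350 and 0.000263) and PDK1 (0.26, edgeR adjusted p = 0.0703 and 0.00413) were higher with 10CA. NDRG1, a stress-responsive gene linked to differentiation and growth arrest (chromosome 8, 133237171 to 133302022, minus strand), went the other way. P4HA1, PDK1 and ADM had all 3 libraries of 10CA above all 3 of 6N, as did 8.54% of all genes.

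NDRG1 had 214.6, 161.2 and 196.5 CPM with 6N-10CA, 164.9, 122.4 and 162.7 CPM with 10CA and 215.2, 141.9 and 191.9 CPM with 6N. With DMSO the level was 159.5, 136.4 and 158.2 CPM. Against DMSO the log2 fold change was -0.01 with 10CA, 0.27 with 6N and 0.33 with 6N-10CA (no block). The level with 10CA was thus near that of DMSO, and those with 6N and 6N-10CA were above it on average. The libraries of 10CA were the lowest of the 3 small molecules within each replicate number, although the groups overlapped, with replicate 2 the lowest in each. The log2 fold change was -0.29 for 10CA against 6N (edgeR adjusted p = 0.390 without the block), and with the block NDRG1 was lower with 10CA (-0.28, SE 0.05, edgeR adjusted p = 0.000591). In 6N-10CA against 10CA none of the 9 genes other than P4HA1 passed without a block, where 0.23% of all genes passed. By unadjusted p under 0.05 there was 1 among the 9, NDRG1, and 1243 among the 14797 genes tested. With the block 1 of the 9 passed, where 2.36% of all genes did. NDRG1 was then 0.35 higher on the log2 scale with 6N-10CA (SE 0.05, edgeR adjusted p = 0.000158 with and 0.519 without the block).

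For other genes the interval sets how large a difference between 6N-10CA and 10CA could be. For PDK1 the log2 fold change was 0.07 with a 95% interval of -0.08 to 0.22, for EGLN3 it was 0.12 with an interval of -0.32 to 0.57, and for VEGFA, an angiogenic growth factor, it was -0.04 with an interval of -0.27 to 0.20 (no block). CA9, a carbonic anhydrase of the cell surface that takes part in pH control, had a log2 fold change of -0.11 with an interval of -0.54 to 0.32. The p-values of the 3 pairs were adjusted over all genes within each pair.

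**Figure D3:**
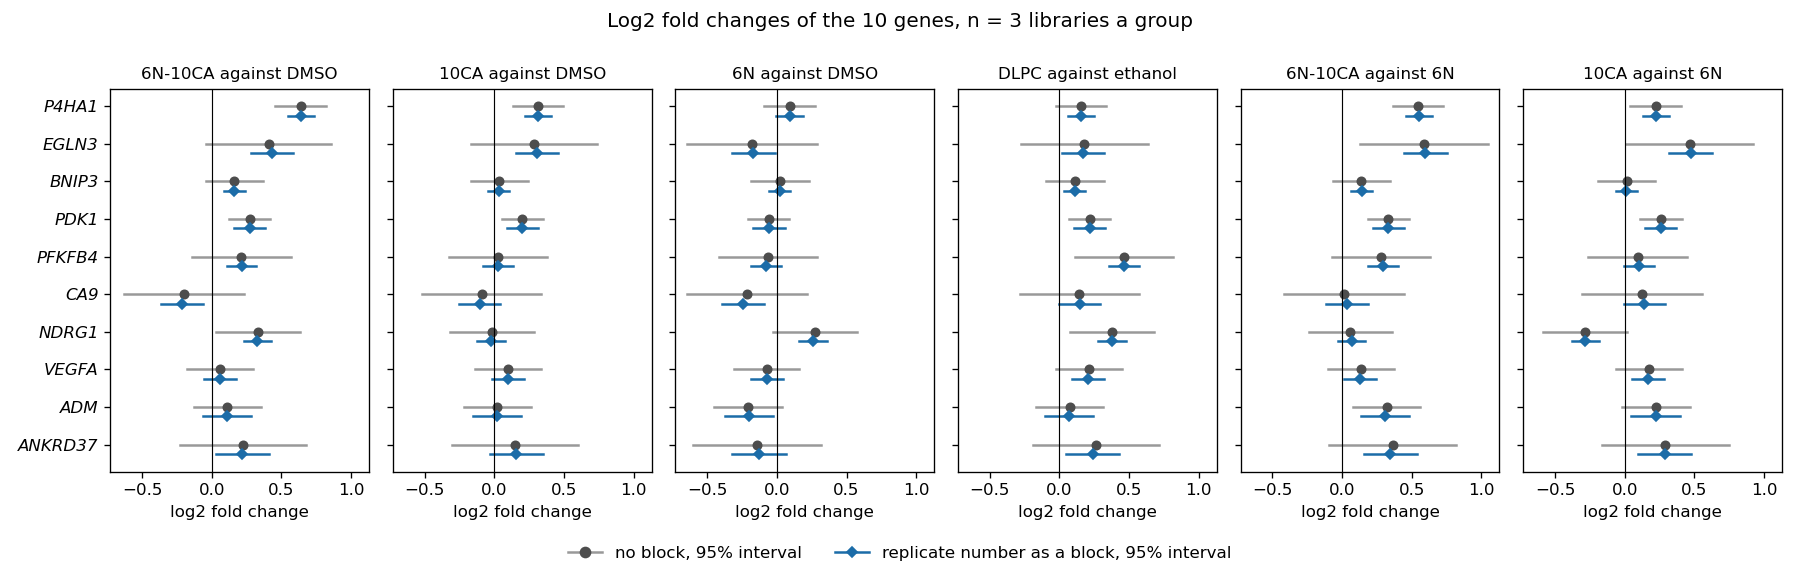
Log2 fold changes of the 10 genes in the comparisons named above the panels, with 95% intervals, in grey without a block and in blue with replicate number blocked. A value above 0 means a higher level in the group named first. The intervals with the block are shorter while the estimates hardly move, as for NDRG1 in 10CA against 6N at -0.29 and -0.28.

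Against DMSO, 6N-10CA differed in P4HA1 without the block, where 0.264% of all genes passed, and in 6 of the 10 genes with it, where 3.8% did. Nothing is read from these counts, since P4HA1 was chosen from this comparison and the other genes with earlier results of these data known. As a description, 9 of the 10 log2 fold changes were above 0, with 0.41 for EGLN3, 0.33 for NDRG1, 0.27 for PDK1 and 0.16 for BNIP3. CA9 was the exception at -0.20, with 102.9, 66.6 and 85.1 CPM with 6N-10CA, against 106.9, 88.8 and 95.7 CPM with DMSO. The CA9 level was thus lower with 6N-10CA in each same-numbered pair, while the groups overlapped. Against ethanol the log2 fold change of CA9 was -0.32 (edgeR adjusted p = 0.661 without and 0.0124 with the block). In that block fit, added after seeing the data, EGLN3, PFKFB4 and NDRG1 passed as higher (0.29, 0.20 and 0.29, edgeR adjusted p = 0.0255, 0.0306 and 0.00111). P4HA1 is left out there, as its choice used the 6N-10CA libraries.

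For 10CA against DMSO none of the 10 genes passed without a block, where 0% of all genes did (DESeq2 passed 13 genes, none of them among the 10). By unadjusted p under 0.05 there were 2 among the 10, P4HA1 and PDK1, and 1033 among all genes. P4HA1 was 0.31 higher on the log2 scale and was the only one of the 10 to pass with the block, where 0.216% of all genes passed. Without 10CA replicate 3 its adjusted p in edgeR with the block was 0.0505. That contrast shares the DMSO libraries with the choice of P4HA1. Against ethanol, whose libraries had no part in it, the log2 fold change of P4HA1 was 0.28 (edgeR adjusted p = 0.451 without and 0.0117 with the block). PDK1 was 0.20 higher on the log2 scale than with DMSO, all libraries of 10CA lay above all of DMSO as for 6.54% of all genes, and it did not pass in either fit (edgeR adjusted p = 0.665 and 0.128).

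For 6N against DMSO none of the 10 genes passed, where 1.14% of all genes did. By unadjusted p under 0.05 there were 0 among the 10 and 1384 among all genes. Of the 10 log2 fold changes 7 were below 0, with a median of -0.07 against 0.00 for all genes tested. ADM was the only one with separate groups, at 16.3, 16.1 and 15.1 CPM with 6N, against 16.4, 18 and 20.4 CPM with DMSO (log2 fold change -0.21, edgeR adjusted p = 0.655). Of all genes, 7.31% had all 3 libraries of 6N below all 3 of DMSO.

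DLPC was given at a dose that differs from that of the small molecules, so its values stand beside theirs without a comparison. Against ethanol, all 10 log2 fold changes were above 0, between 0.07 and 0.46 with a median of 0.20, where the median of all genes was 0.00. None of the 10 passed without a block, where 1.04% of all genes passed. By unadjusted p under 0.05 there were 3 among the 10 and 1930 among all genes. With the block 5 were higher with DLPC and none lower, where 6.74% of all genes passed, 3.6% as higher and 3.14% as lower. These were PFKFB4, NDRG1, PDK1, VEGFA and P4HA1.

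PFKFB4 (chromosome 3, 48517684 to 48562015, minus strand) had 227.7, 169.2 and 180.8 CPM with DLPC, against 167.5, 122.0 and 129.6 CPM with ethanol. NDRG1 had 223.8, 176.6 and 205.5 CPM with DLPC, against 171.9, 132.8 and 162.8 CPM with ethanol. For each of these genes all 3 libraries of DLPC lay above all 3 of ethanol, an arrangement that 9.79% of all genes showed. PFKFB4 was 1.38-fold higher (log2 fold change 0.46, SE 0.17, edgeR adjusted p = 0.219 without and 6.95e-06 with the block), and NDRG1 was 1.30-fold higher (0.37, SE 0.14, edgeR adjusted p = 0.248 and 4.06e-05). Both passed with the block in each of the 6 fits that left out 1 library.

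The 3 other genes held less firmly. PDK1 had 148.4, 124.3 and 150.1 CPM with DLPC, against 123.3, 113.9 and 126.5 CPM with ethanol. VEGFA (chromosome 6, 43770184 to 43786487, plus strand) had 156.6, 131.5 and 171.1 CPM with DLPC, against 128.4, 128.5 and 139.7 CPM with ethanol. The groups overlapped for both, and in both the DLPC library was the higher in all 3 same-numbered pairs. The log2 fold changes without the block were 0.22 for PDK1, 0.21 for VEGFA and 0.16 for P4HA1, with edgeR adjusted p of 0.162, 0.447 and 0.474, and of 0.0173, 0.0269 and 0.0420 with the block. With the block PDK1 and VEGFA each passed in 2 of the 6 fits that left out 1 library, and P4HA1 in 1. All 3 were lost without DLPC replicate 1, DLPC replicate 3 or ethanol replicate 3, with edgeR adjusted p between 0.0614 and 0.263. PDK1 was also lost without ethanol replicate 2 (edgeR adjusted p = 0.0697), VEGFA without ethanol replicate 1 (edgeR adjusted p = 0.0869), and P4HA1 without ethanol replicate 2 or DLPC replicate 2 (edgeR adjusted p = 0.184 and 0.0502). With DMSO in place of ethanol as the vehicle, PDK1 passed without a block (log2 fold change 0.33, edgeR adjusted p = 0.0168). CA9, at 137.8, 92.6 and 120.4 CPM with DLPC, against 129.4, 84.7 and 103.6 CPM with ethanol, did not pass in either fit.

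Between the vehicles, none of the 10 genes passed in ethanol against DMSO with edgeR, where 0% of all genes passed without a block and 0.122% with it. By unadjusted p under 0.05 there were 0 among the 10 and 479 among all genes without the block, and DESeq2 passed 13 genes, none of them among the 10. The log2 fold changes lay between -0.01 for ANKRD37 and 0.13 for EGLN3, and 9 of 10 were above 0.

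All 10 genes differed between replicate numbers. In the fit with a block, all 10 passed for that difference (edgeR, adjusted p of up to 0.0420), where 28.2% of all genes did. P4HA1, CA9, BNIP3, PFKFB4 and NDRG1 were lowest in replicate 2 in all 6 groups, a pattern of 4.15% of all genes. CA9, BNIP3, PFKFB4 and NDRG1 were also highest in replicate 1 in all 6 groups, a pattern of 3.09%. VEGFA, ANKRD37 and EGLN3 were instead highest in replicate 3 in all 6 groups, a pattern of 1.38%. Thus 2 such patterns were seen among the 10 genes.

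The span between the highest and the lowest replicate number, averaged over groups on the log2 scale, was 0.59 for CA9, 0.54 for EGLN3, 0.53 for ANKRD37, 0.48 for PFKFB4 and 0.40 for NDRG1, where the median of all genes was 0.13. It was smallest for PDK1 at 0.13 (edgeR adjusted p = 0.0420) and 0.21 for P4HA1. The share of counts taken by the 50 most abundant genes was likewise lowest in replicate 2 in all 6 groups, at 18.3 to 19.7% of counts in replicate 2, 19.7 to 20.9% in replicate 1 and 19.2 to 20.4% in replicate 3. The part of this share in the pattern of the 10 genes was not tested. What the numbers stand for, such as a culture or a day, is not in the labels.

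**Figure D4:**
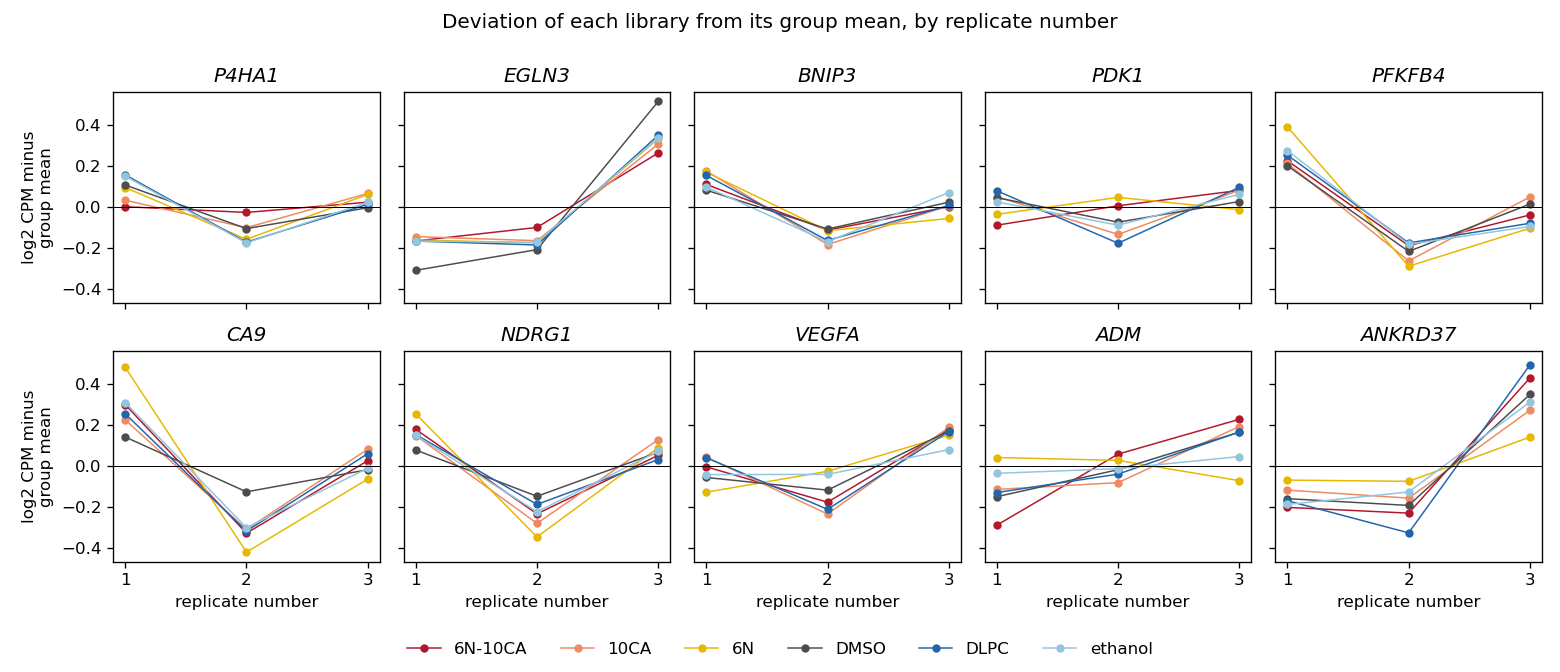
Log2 CPM of each library minus the mean of its group (vertical axes), by replicate number, for each of the 10 genes. Each line is a group: CA9 and PFKFB4 dip at replicate 2 in all 6 groups and EGLN3 and ANKRD37 peak at replicate 3. The lines of ADM and PDK1 differ in shape between groups, as ADM falls from replicate 1 to 3 with 6N and rises with 6N-10CA.

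The wider pathway was read from lists of HIF regulators, other HIF targets, glycolysis, collagen hydroxylation and alpha-ketoglutarate-dependent dioxygenases, all chosen with earlier results of these data known. HIF1A, EPAS1 and their partners, the EGLN enzymes, VHL and related genes gave 13 tested HIF regulators, and none passed without a block in any of the 8 comparisons (smallest edgeR adjusted p = 0.117). Of all genes 0 to 1.71% passed in these comparisons, so none among 13 genes is near that share. The log2 fold changes of the 13 ran from -0.81 to 0.57, both for HIF3A, which averaged 1.07 CPM. HIF1A, the main alpha subunit, had log2 fold changes between -0.11 in 6N against DMSO and 0.10 in 10CA against 6N. With the block EGLN2, a HIF prolyl hydroxylase, was lower with 6N-10CA than with 6N (-0.20, edgeR adjusted p = 0.00566) and lower with 10CA than with 6N (-0.17, edgeR adjusted p = 0.0141). With the block CITED2, a competitor of HIF for its coactivator, was higher with 6N-10CA than with 6N (0.34, edgeR adjusted p = 0.0151), and EGLN1, the main HIF prolyl hydroxylase, was higher with DLPC than with ethanol (0.16, edgeR adjusted p = 0.0191).

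Among 45 tested HIF targets beyond the 10 genes, 3 were higher with 6N-10CA than with 6N and none lower without a block, where 1.64% of all genes passed. With the block 15 were higher and none lower, where 3.9% of all genes were higher and 4.42% lower, and the median log2 fold change was 0.16 against 0.00 for all genes. In the 6 fits that left out 1 library 10 to 15 of these targets passed with the block, where 621 to 1063 of all genes did. In 10CA against 6N, 2 were higher without a block, where 1.71% of all genes passed. With the block 17 were higher and 1 lower, where 4.14% of all genes were higher and 3.52% lower, with a median of 0.15, and without 10CA replicate 3 a total of 10 passed. Against DMSO the median of the 45 was -0.045 with 6N, 0.09 with 10CA and 0.125 with 6N-10CA. None passed there without a block, where 1.14%, 0% and 0.264% of all genes did. With the block 15 were higher with 6N-10CA and 3 with 10CA, and none lower, where 3.8% and 0.216% of all genes passed. In the 6 fits that left out 1 library the 15 became 7 to 11, where 218 to 370 of all genes passed. The 3 became 1 to 4, where 4 to 61 of all genes passed. PPP1R3C, which brings a phosphatase to glycogen, had 41.2, 47.1 and 45.1 CPM with 6N-10CA, 44.7, 42.9 and 43.8 CPM with 10CA and 26.1, 30.4 and 33.7 CPM with 6N, so that both groups lay above 6N without overlap. With DMSO PPP1R3C had 35.3, 35.9 and 40.5 CPM, above every library of 6N and below every library of 6N-10CA and 10CA. Against DMSO its log2 fold change was -0.31 with 6N and 0.26 with 6N-10CA (no block, edgeR adjusted p = 0.128 and 0.276). Relative to 6N, it was 0.57 higher on the log2 scale with 6N-10CA (SE 0.09, edgeR adjusted p = 0.000727) and 0.54 higher with 10CA (SE 0.09, edgeR adjusted p = 0.00120), and passed without the block in all 6 fits that left out 1 library in each comparison. BHLHE40, a repressor of transcription, was higher by 0.46 with 6N-10CA (edgeR adjusted p = 0.0268) and by 0.42 with 10CA (edgeR adjusted p = 0.0426), but without the block it passed in 1 of 6 and 2 of 6 such fits, with adjusted p of up to 0.193. DDIT4, an inhibitor of mTOR signalling, was higher by 0.33 with 6N-10CA than with 6N (edgeR adjusted p = 0.0349) and passed in 1 of 6 such fits, with adjusted p of up to 0.165. BHLHE40 passed without 6N replicate 3 in both comparisons and without 10CA replicate 2 against 6N, and DDIT4 without 6N replicate 2. Without the block DDIT4 also did not pass under scaling to library totals or with the 2 groups alone in the fit (edgeR adjusted p = 0.0607 and 0.0994), and BHLHE40 did not in 10CA against 6N with the 2 groups alone (edgeR adjusted p = 0.0863). Both genes passed with the block in every fit that left out 1 library.

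In DLPC against ethanol, none of the 45 HIF targets passed without a block, where 1.04% of all genes passed. With the block 15 were higher and 2 lower, where 3.6% of all genes were higher and 3.14% lower, and the median log2 fold change was 0.13. The higher ones included the matrix cross-linking enzyme LOX (0.61, edgeR adjusted p = 5.76e-07) and the glycogen branching enzyme GBE1 (0.39, edgeR adjusted p = 2.06e-05), both with the block. The glucose transporter SLC2A1 (-0.12, edgeR adjusted p = 0.0396) and haem oxygenase HMOX1 (-0.13, edgeR adjusted p = 0.0315) were lower with DLPC, with the block. In 6N-10CA against 10CA 2 were higher and 1 lower with the block, where 2.36% of all genes passed, and none passed without it, where 0.23% did.

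Of 16 tested glycolysis genes, ALDOC, an aldolase, had 173.2, 147.1 and 156.3 CPM with 6N-10CA, 134.2, 117.0 and 125.1 CPM with 10CA, 115.0, 87.5 and 94.8 CPM with 6N, and 136.0, 115.5 and 124.9 CPM with DMSO. With DLPC it had 185.3, 157.7 and 166.9 CPM, against 140.7, 117.9 and 128.3 CPM with ethanol. The libraries of 6N-10CA lay above all of 6N and those of DLPC above all of ethanol. Those of 6N also lay below all of DMSO, and those of 6N-10CA above all of DMSO. The log2 fold change of ALDOC against DMSO was -0.34 with 6N and 0.34 with 6N-10CA (no block, edgeR adjusted p = 0.119 and 0.151). ALDOC was 0.68 higher on the log2 scale with 6N-10CA than with 6N (SE 0.09, edgeR adjusted p = 0.000247), passing in all 6 fits without 1 library. It was 0.40 higher with DLPC than with ethanol (SE 0.09, edgeR adjusted p = 0.0454), passing without the block in 1 of 6 such fits, the fit without ethanol replicate 1, with adjusted p of up to 0.251 in the others, and in all 6 with the block. No other glycolysis gene passed without a block in these 2 comparisons or in 10CA against 6N, where 1.64%, 1.04% and 1.71% of all genes did. With the block 10 of the 16 were higher with 6N-10CA than with 6N, 7 with 10CA than with 6N and 5 with DLPC than with ethanol, and none was lower. Of all genes, 3.9%, 4.14% and 3.6% were higher with the block in these 3 comparisons. The 10 became 7 to 9 over the 6 fits that left out 1 library. Without 10CA replicate 1, 10CA replicate 3 or 6N replicate 3 the 7 became 4, and without DLPC replicate 1 the 5 became 2. Against DMSO the median log2 fold change of the 16 was -0.044 with 6N, 0.04 with 10CA and 0.085 with 6N-10CA. None passed there without a block, where 1.14%, 0% and 0.264% of all genes did. With the block 2 were higher with 6N-10CA and 0 with 10CA, and none lower, where 3.8% and 0.216% of all genes passed.

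The collagen list holds P4HB, other genes of collagen modification and folding, and collagen chains. The dioxygenase list holds other enzymes of the class of P4HA1. None of the 10 tested genes of collagen hydroxylation and collagen chains and none of the 13 tested dioxygenases passed without a block in 6N-10CA against 6N, 10CA against 6N, 6N-10CA against 10CA or DLPC against ethanol. Of all genes 1.64%, 1.71%, 0.23% and 1.04% passed there, in that order, so nothing is read from their absence in lists this short. With the block PPIB, CRTAP and SERPINH1, which assist collagen folding, were lower with DLPC than with ethanol, with log2 fold changes of -0.14 to -0.12, and the histone demethylase KDM6A was higher with 10CA than with 6N (0.25, edgeR adjusted p = 0.0211). None of the collagen list passed without a block with 6N, 10CA or 6N-10CA against DMSO either, where 1.14%, 0% and 0.264% of all genes did. With the block 3 of its 10 genes were lower with 6N-10CA than with DMSO and none higher, where 3.8% of all genes passed. These were P4HB, the partner subunit of P4HA1 in the hydroxylase (-0.15, edgeR adjusted p = 0.00357), PPIB (-0.17, edgeR adjusted p = 0.00561) and the lysyl hydroxylase PLOD3 (-0.15, edgeR adjusted p = 0.0245), in the comparison where P4HA1 itself had a log2 fold change of 0.64.

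**Figure D5:**
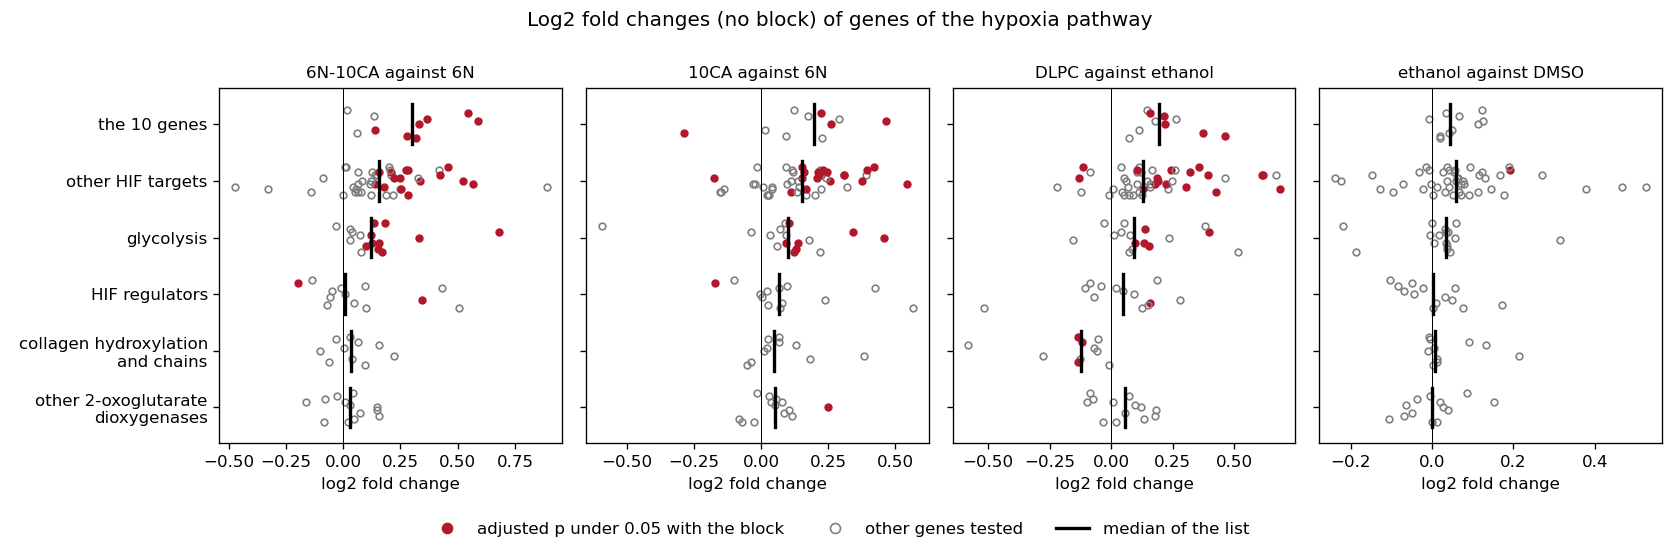
Log2 fold changes without a block of the genes of each pathway list (rows), in the comparisons named above the panels, whose horizontal axes differ in range. Filled points passed at an adjusted p under 0.05 with the replicate block, and bars mark the median of a list, which for the other HIF targets is 0.16 in 6N-10CA against 6N.

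To place P4HA1 among all genes, log2 CPM was centred within each replicate number and correlated over the 18 libraries with each of 10685 other genes at 5 CPM or more. The nearest were TCAF1 (Pearson r 0.90), RLF (0.88), ITGB2 (0.87), ORC3 (0.86) and FAM45A (0.86), none of which is on the hypoxia lists. TCAF1 had 156.4 ± 8.07 CPM with 6N-10CA, 139 ± 4.72 with 10CA and 140.5 ± 4.95 with 6N, against 130.1 ± 4.34 with DMSO (mean ± SD, n = 3 each). Among the 10, EGLN3 came closest to P4HA1 with r of 0.71 at rank 101, PDK1 followed with 0.61 at rank 345 and BNIP3 with 0.59 at rank 412. CA9 had r of -0.36 and VEGFA 0.12. Without the centring r was 0.07 for CA9 and 0.235 for VEGFA, 0.49 for EGLN3, 0.63 for PDK1 and 0.605 for BNIP3, so the sign for CA9 depends on it. Of the nearest genes RLF had 0.29 without the centring and the 4 others 0.71 to 0.88. The libraries share groups, so these values describe likeness and carry no test.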

How the data were processed

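The 10 genes and the pathway lists were chosen with earlier results of these data known. Raw read counts, whole numbers by gene symbol, were deposited by the authors as a single table of 35238 rows covering the 18 libraries. GRCh38 as the build and DESeq2 as a tool come from the submitters' processing notes. No aligner, counter or annotation is given in the sources used here. Libraries were made from amplified cDNA, so counts of reads are not independent molecules. In 28 rows the symbol had turned into a date; such rows entered the fit and are never named.

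Genes were kept by edgeR's filterByExpr (minimum count 10, total 15), which left 14797 genes with 99.96% of counts. A model of group means with TMM scaling was fitted to the 18 libraries together and tested by edgeR 4.0.16 (R 4.3.3) with the quasi-likelihood test, Benjamini-Hochberg adjustment over all genes, two-sided, threshold 0.05. The biological coefficient of variation was 6.96%, and 4.42% with a block. The script was tested on simulated counts. Levels used a prior count of 2 on the log2 scale. Replicates differed by more than sampling noise (chi-square per gene of 4.71 to 14.7 over 18 pairs), so none was counted as a copy. The labels do not say whether replicates were separate cultures, and p-values reflect only how these samples vary, possibly for technical reasons.

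Numbers were taken to pair libraries in a comparison where all 3 same-numbered pairs had correlated deviations over 0.1, among 10686 genes of at least 5 CPM. The numbers come from the sample titles, over all groups the same-numbered correlations ran from -0.01 to 0.59, and those of different numbers from -0.50 to 0.11. The labels do not tie a vehicle to a compound: DMSO was taken for the small molecules and ethanol for DLPC from knowledge of the study. Gene positions and exon lengths come from GENCODE release 29 on GRCh38, and promoter windows from RefSeq on GRCh38.p14. Alternatives were other scalings, no filter, DESeq2 1.42.0, the 2 groups alone, other vehicles, single libraries left out and the block. Members were all named, and other genes were named from the lists where they passed or as the nearest 5 to P4HA1. PPP1R3C, BHLHE40, DDIT4 and ALDOC, and LOX, GBE1, SLC2A1 and HMOX1, were picked after their values were seen.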

Additional observations from a re-analysis of the deposited data

How the results depend on the processing

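Of the 10 genes, those that passed with edgeR at an adjusted p under 0.05 numbered 0 for 6N, 0 for 10CA and 1 for 6N-10CA, each against DMSO, 0 for DLPC against ethanol, 2 for 6N-10CA against 6N, and 0 for 6N-10CA against 10CA, 10CA against 6N and ethanol against DMSO. With the replicate block the counts were 1, 1, 6, 5, 7, 2, 4 and 0 in the same order, and the counts of all genes were 551, 32, 562, 997, 1231, 349, 1133 and 18, against 169, 0, 39, 154, 242, 34, 253 and 0 without it. In 6N against DMSO the numbers share only a number by the rule used, since the smallest of the 3 correlations was 0.09 and 2 of the 3 pairs were each other's best match. NDRG1 passed there with the block (log2 fold change 0.26, edgeR adjusted p = 0.00186), as did P4HB of the collagen list (-0.12, edgeR adjusted p = 0.0154) and the stromal markers PDGFRB (-0.44, edgeR adjusted p = 0.0330) and ACTA2 (0.15, edgeR adjusted p = 0.0224). ALDOC (-0.34, edgeR adjusted p = 2.14e-06) and the hepatocyte marker TTR (-0.22, edgeR adjusted p = 0.0190) were lower with 6N in that fit. Of the 45 other HIF targets 1 was higher and 3 were lower. Counts for 6N-10CA include P4HA1, whose choice used those libraries.

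With no filter the count became 1 for 10CA against DMSO, 3 for 6N-10CA against DMSO, 3 for 6N-10CA against 6N (EGLN3 added), and 2 for DLPC against ethanol, for 6N-10CA against 10CA and for 10CA against 6N. With DESeq2 it became 2 for 6N-10CA against DMSO, and 1 for 6N-10CA against 10CA and for 10CA against 6N. DLPC had 1 against DMSO and 1 against the mean of both vehicles, and 8 against DMSO with the block. With ethanol as the vehicle and the block 6N had 3, a fit added after seeing the data. CA9 and EGLN3 were lower there (log2 fold change -0.35 and -0.31, edgeR adjusted p = 0.00323 and 0.0134). NDRG1 was higher (0.22, edgeR adjusted p = 0.00515). By the rule used the numbers did not pair 6N with ethanol, as the smallest of the 3 correlations was -0.01. Without the libraries numbered 3 in every group, also added after, the count was 0 for 6N-10CA against DMSO, 1 for 6N-10CA against 6N and 1 for 10CA against 6N. The 1 was EGLN3, whose values led to that choice. In 6N-10CA against 6N, PDK1 then no longer passed (edgeR adjusted p = 0.352). P4HA1 had a log2 fold change of 0.565 for 6N-10CA against 6N and 0.63 against DMSO. These 2 values are given with no test because the choice of P4HA1 used the 6N-10CA libraries. Other scalings and the fit of the 2 groups alone left every count of the 10 genes as it was. Where these counts come without the share of all genes, nothing about the 10 genes is read from them. Why these counts moved was not tested beyond the settings themselves.

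Leaving out single libraries gave 0 to 1 for 10CA against 6N and for DLPC against ethanol, and 1 to 2 for 6N-10CA against 6N. Of all genes 141 to 338, 56 to 118 and 138 to 235 passed in those fits, in the same order. With the block the ranges were 1 to 2 for 6N, 0 to 2 for 10CA and 3 to 6 for 6N-10CA against DMSO. In those fits 343 to 489, 4 to 61 and 218 to 370 of all genes passed. For DLPC against ethanol the range was 2 to 4, where 422 to 757 of all genes passed. It was 4 to 8 for 6N-10CA against 6N, 2 to 3 for 6N-10CA against 10CA and 4 to 6 for 10CA against 6N. Of all genes 621 to 1063, 144 to 258 and 580 to 1355 passed there, in that order. Without the block 4 log2 fold changes turned in sign when 1 library numbered 3 was left out, and the cause was not tested. EGLN3 in 6N against DMSO ran between -0.37 and 0.13. ANKRD37 in 6N-10CA against DMSO ran between -0.023 and 0.42. In DLPC against ethanol ANKRD37 ran between -0.038 and 0.43 and EGLN3 between -0.025 and 0.36. None of these had passed. With the block none turned in sign. EGLN3, ANKRD37 and ADM rest on 252 to 720 counts per library, the lowest of the 10 genes, which limits their precision.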
